A study of Mus musculus with 22 samples.

Results

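The clustered protocadherins are cell-surface proteins of the cadherin superfamily encoded by 3 neighbouring gene clusters, alpha, beta and gamma. They were taken here as every gene with a protein-coding transcript model whose symbol begins with Pcdha, Pcdhb or Pcdhg followed by its cluster number or C-type name. The rule found 58 genes under 57 symbols among the 55385 genes of the transcript index, of which 21804 had a protein-coding model. The alpha cluster held 14, the beta cluster 22 and the gamma cluster 22. The symbol Pcdha11 stood on 2 genes, ENSMUSG00000007440 and ENSMUSG00000102206, which were kept apart. Pcdhgb8 is annotated as a polymorphic pseudogene but met the rule through a protein-coding transcript model. On GRCm38 the clusters lay on chromosome 18, the alpha genes from 36930184 to 37187661, the beta genes from 37264938 to 37524479 and the gamma genes from 37661793 to 37841873.

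In the alpha and gamma clusters each gene is a large variable first exon with a promoter of its own, spliced to constant exons that all genes of that cluster share. The variable exon encodes the extracellular cadherin repeats, the transmembrane segment and a stretch of cytoplasmic tail, and the constant exons encode the common end of the tail. Beta genes have no constant exons. A neuron chooses some of the alternate isoforms through promoter choice that depends on DNA methylation, CTCF and cohesin, whereas the C-type isoforms at the ends of the alpha and gamma clusters are regulated apart from them. The proteins bind like isoforms on facing membranes, and in neurons this recognition is known for self-avoidance of dendrites and axons, for dendrite growth and for the survival of some neuron classes.

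Ribosome-bound mRNA was recovered from 6 brain cell types of 6-week-old mice that carried 1 HA-tagged, Cre-dependent allele of Rpl22 (Rpl22 Fl/+), so that only cells with Cre activity held tagged ribosomes. Dentate gyrus granule cells (hippocampus) and layer V cortical neurons (cortex) both came from Rbp4-Cre mice. Cerebellar granule cells came from Gabra6-Cre cerebellum, inhibitory interneurons from Dlx6a-Cre hippocampus with tissue of 2 mice in each replicate, astrocytes from cortex of a line labelled Aldh1-cre and microglia from Tmem119-cre cortex. Per the study's methods these last lines are the tamoxifen-inducible Aldh1l1-cre/ERT2 and Tmem119-cre/ERT2, and inducible lines were given tamoxifen by gavage, so that in neurons against glia the drug and the cell type cannot be told apart. Each cell type had 3 replicates, and for the 4 replicates sequenced in both batches the batch 1 library was used. Interneuron and microglia libraries were all from batch 2 and the others were from batch 1. Each cell type is thus what its Cre line labels in that tissue, and mRNA of untagged cells can be carried along in the immunoprecipitation.

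The 18 libraries held between 38270477 and 71440915 estimated counts. The members took between 0.0226% and 0.241% of a library's counts. Markers of the other 5 cell types were highest in that cell type's own libraries, but of the 4 layer V markers Fezf2 alone was, at 85.5 TPM (transcript abundance scaled by length and library). Etv1 was at 728 TPM in cerebellar granule cells against 82.5 in layer V neurons, Bcl11b at 159.5 in dentate gyrus granule cells against 34.3, and Rbp4 at 87.0 in interneurons against 52.2. The summed layer V list was at 255 TPM in layer V neurons, 246 in dentate gyrus granule cells and 728 in cerebellar ones. Summed neuronal markers (Rbfox3, Snap25, Syt1) stood at 3232 to 12267 TPM in the neuron types, 764 TPM in astrocytes and 329 TPM in microglia. Oligodendrocyte markers were at 2451 TPM in interneurons against 98.8 to 283 TPM in the other neuron types. Layer V replicate 1 was labelled female in batch 1 and male in batch 2, and its batch 2 library did not have the Xist and Ddx3y levels of the 12 other libraries labelled male. The batch 1 library used here matched its own label.

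The clusters differed in where they were high. Summed over its genes, the alpha cluster was highest in interneurons and the beta cluster in cerebellar granule cells, with interneurons next. The gamma cluster was highest in astrocytes, and all 3 clusters were lowest in microglia. Fewer cells of a type and less RNA per cell cannot be told apart in such bulk samples, here or in the results that follow.

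The alpha sum was 71.5 ± 4.14 TPM (SD, n = 3, as for the other sums) in dentate gyrus granule cells, 70.3 ± 1.44 in layer V neurons and 82.4 ± 1.73 in cerebellar granule cells. It was 135 ± 4.48 TPM in interneurons, 15.8 ± 1.19 in astrocytes and 5.17 ± 0.377 in microglia. The 3 interneuron libraries (130, 139 and 136 TPM) lay above every other library, while dentate and layer V libraries overlapped, at 68.6 to 76.2 and 69.1 to 71.9 TPM. The beta sum was 118 ± 3.54 TPM in cerebellar granule cells, 109 ± 6.93 in interneurons, 91.8 ± 3.82 in those of the dentate gyrus and 51.5 ± 2.08 in layer V neurons. It was 31.1 ± 0.560 TPM in astrocytes and 9.22 ± 0.805 in microglia. Cerebellar (115 to 122 TPM) and interneuron libraries (102 to 116 TPM) overlapped, and layer V neurons were the lowest neuron type without overlap.

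The gamma sum was 833 ± 28.4 TPM in astrocytes, with libraries at 852, 800 and 846 TPM. In neurons it was 405 ± 29.4 TPM in dentate gyrus granule cells, 355 ± 10.3 in cerebellar ones, 280 ± 8.25 in layer V neurons and 272 ± 4.57 in interneurons, and in microglia it was 83.0 ± 4.67 TPM. Every astrocyte library lay above every neuron library, and layer V (274 to 289 TPM) and interneuron libraries (268 to 277 TPM) overlapped. The order of the neuron types depends on short transcript models without a variable exon, described further on. From models with the variable exon alone (a choice made once the values had been seen) the gamma sum was 334 ± 3.28 TPM in cerebellar granule cells, 289 ± 18.9 in those of the dentate gyrus, 171 ± 5.77 in interneurons and 117 ± 5.76 in layer V neurons. No neuron types overlapped there, and layer V (111 to 122 TPM) lay below interneurons (164 to 175 TPM). Astrocytes stayed highest at 624 ± 41.8 TPM and microglia lowest at 48.2 ± 3.11 TPM.

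Over all models gamma transcripts made up 94.7% of all clustered protocadherin TPM in astrocytes and 85.2% in microglia, against shares in neurons of 71.2% (dentate), 69.7% (layer V), 63.9% (cerebellar) and 52.7% (interneurons). With the variable exon alone the shares were 93.1% in astrocytes, 77.3% in microglia, 64.2% (dentate), 49.1% (layer V), 62.9% (cerebellar) and 41.5% (interneurons), which puts layer V neurons below both granule cell types. Over all models alpha transcripts made up 26.2% in interneurons and 1.80% in astrocytes.

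**Figure D1:**
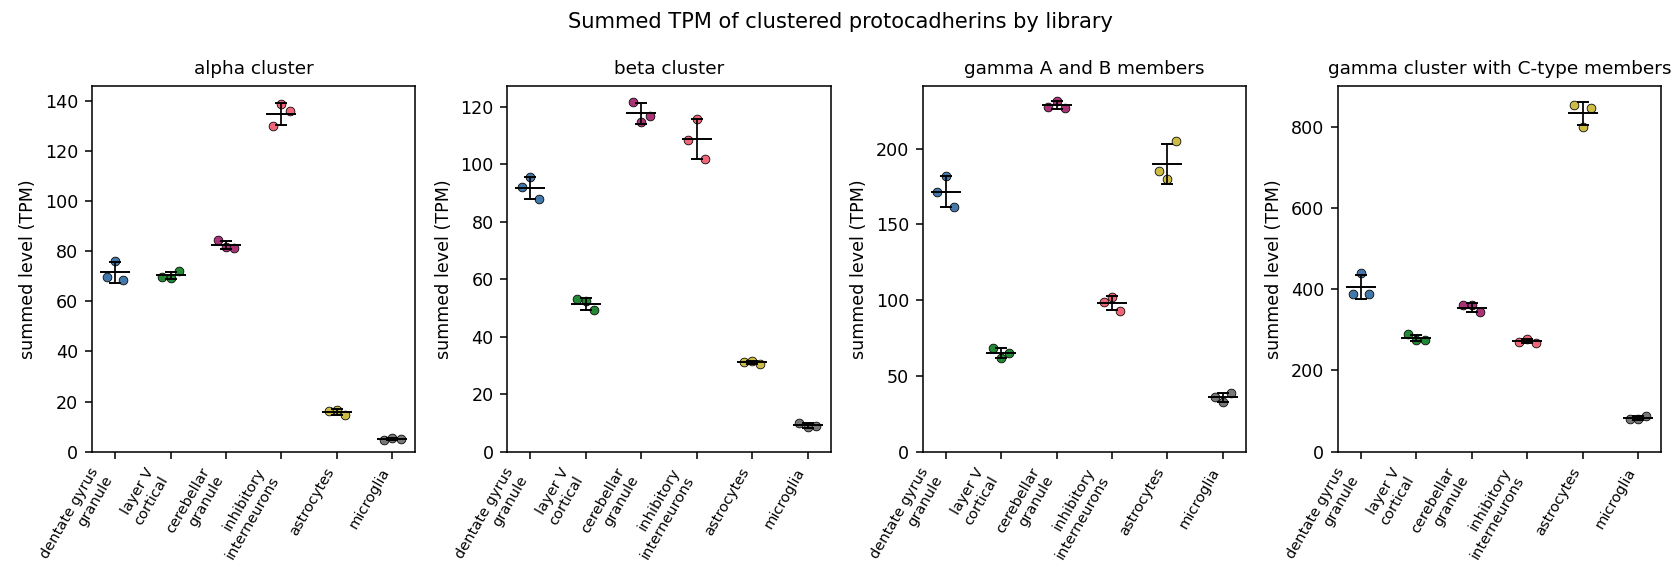
Summed TPM in the 18 libraries, by cell type, for the alpha cluster, the beta cluster, the gamma A and B isoforms and the whole gamma cluster; points are libraries and bars are the mean ± SD of 3. Alpha is highest in interneurons (135 TPM), beta in cerebellar granule cells (118 TPM) and gamma in astrocytes (833 TPM), and microglia are lowest in each of these 3 clusters. All transcript models are counted, and the order of neuron types in the whole gamma cluster differs with the variable exon alone.

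Set against the mean of the 4 neuron types, astrocytes held less alpha and beta mRNA but more gamma mRNA. The neuron mean was 5.67 times the astrocyte level for alpha and 2.97 times for beta, whereas the astrocyte level was 2.54 times the neuron mean for gamma. Against microglia the neuron mean was 17.4 times higher for alpha, 10.02 times for beta and 3.95 times for gamma. The astrocyte level of the neuronal markers was 11.01% of their neuron mean, and that of alpha, beta and gamma was 17.6%, 33.6% and 254% of theirs. In microglia the same values were 4.74% for the markers and 5.76%, 9.98% and 25.4% for alpha, beta and gamma. What part neuronal mRNA had in the glial values was not tested. Astrocyte markers in neurons were at 0.40% to 0.99% of their astrocyte level, while the gamma A and B isoforms were at 34.2% to 120% of theirs. In microglia these values were 3.08% and 18.9%. What part astrocyte mRNA had in the values of the other cell types was not tested.

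The transcript models differ in how much sequence is their own. For each gene, the 31-base words of its longest model with the variable exon were compared. Of these words, 29.8% to 51.6% occurred in no other member in the alpha cluster, 77.5% to 100.0% in the beta cluster and 32.2% to 58.3% in the gamma cluster, since constant exons are shared. With genes that are not members counted too, the share was 0.49% for Pcdha4, 0.62% for Pcdhga10 and 1.52% for Pcdha11 (ENSMUSG00000102206). Pcdhgc4 stands out because 1 of its models (a model of 2272 bases and 4 exons) has 153 bases found in no other member, and up to 98.5% of the gene's TPM in a cell type was assigned to models without the variable exon. The other members over 25% in some cell type were Pcdhb8 (up to 42.6%), Pcdhgc5 (40.4%), Pcdhga12 (31.5%) and Pcdhb6 (26.1%). C-type levels below are therefore those of models that carry the variable exon, which means at least 1000 bases in no other member's models. Models annotated as a retained intron, as nonsense-mediated decay or as a processed transcript were also left out. Since beta genes have no constant exons, the shares of Pcdhb8 and Pcdhb6 are only those of models outside this rule.

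The C-type isoforms, 2 of alpha and 3 of gamma, carried much of the difference between cell types. Pcdhgc3, an isoform known to promote dendrite branching, was the astrocyte and cerebellar granule cell isoform. Its level was 390, 333 and 383 TPM in the astrocyte libraries, 101, 92.5 and 99.7 in cerebellar granule cells, and from 16.6 to 18.01 in those of the dentate gyrus. It was 19.3, 19.1 and 19.0 TPM in interneurons, 7.87, 8.07 and 9.66 in microglia and 2.73, 2.85 and 2.98 in layer V neurons. No cell type overlapped another in these values. How far astrocyte mRNA made up the low levels in microglia and layer V neurons was not tested. Pcdhgc3 made up 59.1% of gamma TPM in astrocytes, 29.3% in cerebellar granule cells and 17.7% in microglia. There it lay close to Pcdhgb2 (8.04, 8.07 and 8.12 TPM), which was higher in replicate 1 and lower in replicate 3, and over all models Pcdhgc4 was higher than both (28.3 to 31.03 TPM).

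Pcdhgc5, an isoform that appears late in cortical development, had another order. It stood at 97.4, 109 and 92.1 TPM in dentate gyrus granule cells, 57.1, 57.7 and 62.6 in astrocytes, and 49.5, 44.5 and 48.4 in layer V neurons. In interneurons it was at 16.7, 15.7 and 13.51 TPM, in microglia at 4.31, 4.68 and 4.39, and in cerebellar granule cells at 0.988, 0.749 and 0.953. Again no cell types overlapped, and the 2 granule cell types stood at opposite ends. It made up 34.3% of gamma TPM in dentate gyrus granule cells and 40.5% in layer V neurons, the largest share of any gamma isoform in both by these models.

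Pcdhgc4, the isoform known to be needed for neuron survival, interneurons among them, was at 38.2, 38.1 and 39.1 TPM in interneurons. It was at 7.46, 6.83 and 7.16 TPM in cerebellar granule cells and 5.49, 6.37 and 7.55 in astrocytes. Lower values were found in layer V neurons (2.14, 2.01 and 2.23 TPM), dentate gyrus granule cells (1.40, 1.45 and 2.07 TPM) and microglia (0.760, 0.570 and 0.500 TPM). Interneurons were separate from all others, whereas cerebellar granule cells and astrocytes overlapped, as did layer V neurons and dentate gyrus granule cells. Pcdhgc4 was the leading gamma isoform of interneurons, at 22.6% of gamma TPM. Summed over all its models the gene read differently, at 175 to 209 TPM in astrocytes, 135 to 145 in layer V neurons, 131 to 137 in interneurons and 11.4 to 31.1 in cerebellar granule cells. The level of this gene therefore depends on whether the short model is counted. In cerebellar granule cells, replicates 1 and 2 were at 27.2 and 31.1 TPM by that sum, against 11.4 and 9.04 TPM in the batch 1 and batch 2 libraries of replicate 3.

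Both alpha C-types were highest in interneurons. Pcdhac2, whose isoform is known to be required for the even spacing of serotonergic axons, was at 59.0, 63.6 and 62.3 TPM there, 31.9, 33.2 and 33.1 in cerebellar granule cells, 25.2, 26.8 and 24.7 in those of the dentate gyrus and 22.8, 21.3 and 23.0 in layer V neurons. It was at 4.68 to 6.59 TPM in astrocytes and 1.78 to 2.09 in microglia. It was the leading alpha isoform of every cell type, at 31.8% to 45.8% of alpha TPM over all models. Pcdhac1 was at 7.38, 7.61 and 8.18 TPM in interneurons, and its libraries of the other 3 neuron types overlapped between 3.13 and 4.04 TPM. It was at 0.603 to 0.948 TPM in astrocytes and 0.142 to 0.188 in microglia.

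**Figure D2:**
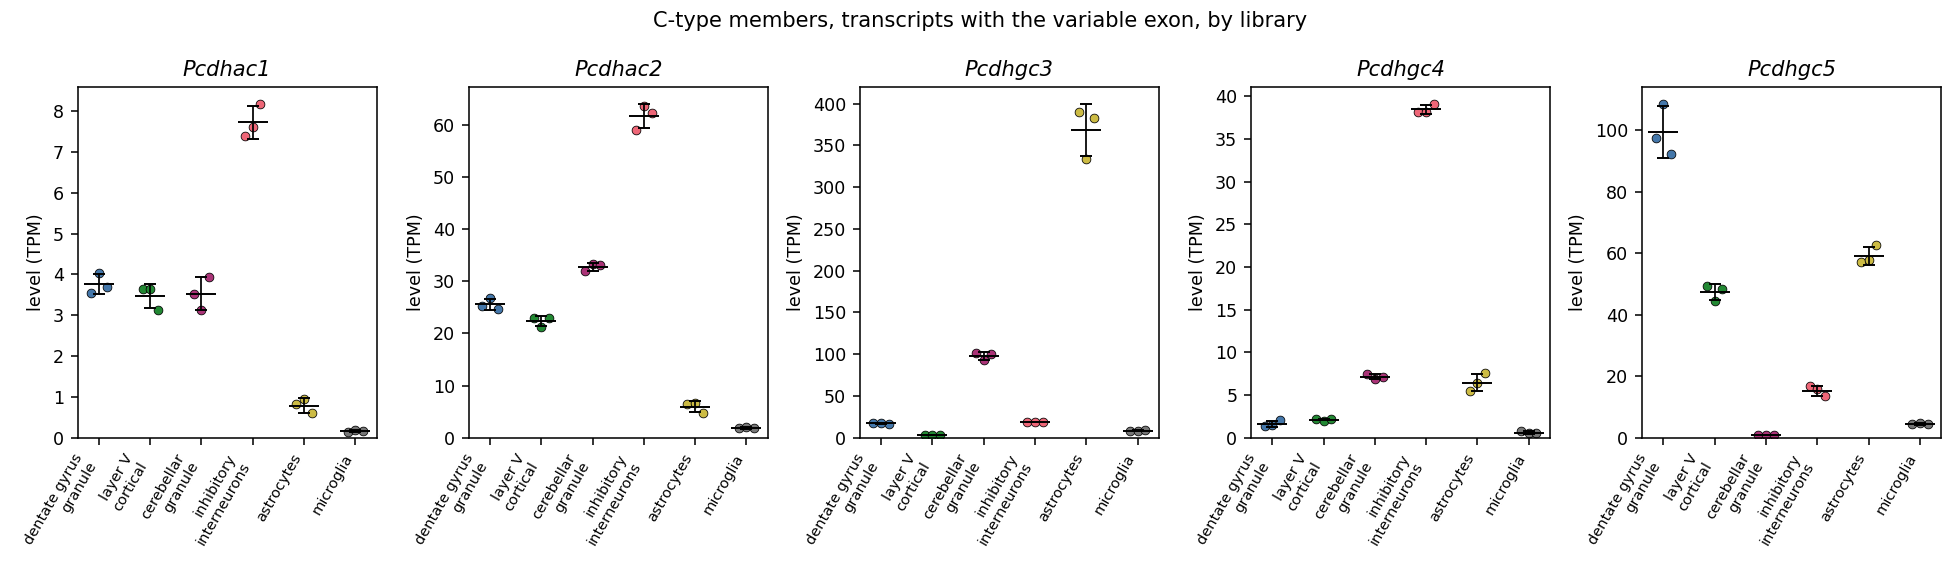
TPM of the 5 C-type isoforms in the 18 libraries, from transcript models that carry the variable exon; points are libraries, bars are the mean ± SD of 3, and each isoform has a linear axis of its own. Pcdhgc3 is highest in astrocytes, Pcdhgc5 in dentate gyrus granule cells, and Pcdhgc4, Pcdhac1 and Pcdhac2 in interneurons.

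Among the alternate isoforms no single one dominated in neurons. The leading alpha isoforms by mean level were Pcdha4, Pcdha12 and Pcdha5. Pcdha4 was at 7.21, 8.82 and 10.2 TPM in layer V neurons, 10.9, 10.2 and 8.13 in interneurons, 6.61, 8.02 and 6.89 in dentate granule cells and 6.07, 5.23 and 4.72 in cerebellar granule cells. The layer V libraries overlapped both the interneuron and the dentate libraries, and cerebellar libraries were the lowest of the neurons. Pcdha12 was at 4.74 to 5.15 TPM in interneurons and at 5.37 to 7.89 in the other neuron types, and Pcdha5 at 7.39 to 9.64 TPM in interneurons and 4.21 to 5.62 in the others. Pcdha8 was the lowest alpha gene in every cell type, at 0.306 to 0.986 TPM in cerebellar granule cells and at most 0.281 elsewhere. Counted as an effective number of isoforms (the exponential of the Shannon entropy of their shares), the 12 alternate alpha genes gave 9.79 in layer V neurons to 10.7 in cerebellar granule cells.

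The leading beta isoforms were Pcdhb17, Pcdhb20 and Pcdhb9. Pcdhb17 was at 9.15 to 10.6 TPM in dentate gyrus granule cells, 5.5 to 6.09 in layer V neurons, 11.2 to 11.54 in cerebellar granule cells and 7.60 to 9.37 in interneurons. Pcdhb20 reached 12.6 to 14.1 TPM in cerebellar granule cells and Pcdhb9 reached 9.84 to 11.6 in dentate gyrus granule cells, where it led with 11.9% of beta TPM. In microglia 1 isoform took more. Pcdhb22 was at 2.76, 1.89 and 2.06 TPM there, 24.1% of beta TPM, against 8.39% for the leading isoform of astrocytes. The effective number of beta isoforms was 14.1 in microglia and 16.8 to 19.15 in the other cell types. Its own level overlapped that of astrocytes (2.42 to 2.54 TPM). Pcdhb1 was the lowest beta gene, with at most 0.119 TPM in any library and was listed at 0 in all 3 cerebellar libraries, and it was the 1 member not tested.

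Of the gamma A and B isoforms, Pcdhga11, Pcdhgb6 and Pcdhga6 had the highest mean levels. Pcdhga11 was at 34.0, 37.9 and 36.9 TPM in cerebellar granule cells, 26.9, 26.3 and 25.7 in those of the dentate gyrus and 25.4, 23.4 and 27.0 in astrocytes. It was at 6.38 to 8.08 TPM in layer V neurons, 7.86 to 8.78 in interneurons and 1.47 to 1.75 in microglia. Dentate and astrocyte libraries overlapped, as did layer V and interneuron libraries. Pcdhgb6 was highest in cerebellar granule cells (21.8 to 22.8 TPM, against 11.1 to 14.3 in the dentate gyrus and 13.7 to 14.7 in astrocytes), whereas Pcdhga6 was at 15.5 to 21.5 TPM in astrocytes and overlapped cerebellar libraries (14.3 to 18.5 TPM). In interneurons the leading isoform of this group was Pcdhga3, with 10.6% of its TPM. Pcdhgb2 was the leading isoform of this group in microglia, at 8.25, 8.19 and 8.34 TPM or 23.1% of gamma A and B TPM, and overlapped the astrocyte libraries (7.41, 8.63 and 8.87 TPM). In layer V neurons it was at 1.63, 1.80 and 1.88 TPM. The whole gamma B group was lowest in layer V neurons, at 13.8 TPM, below microglia at 19.96 TPM.

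**Figure D3:**
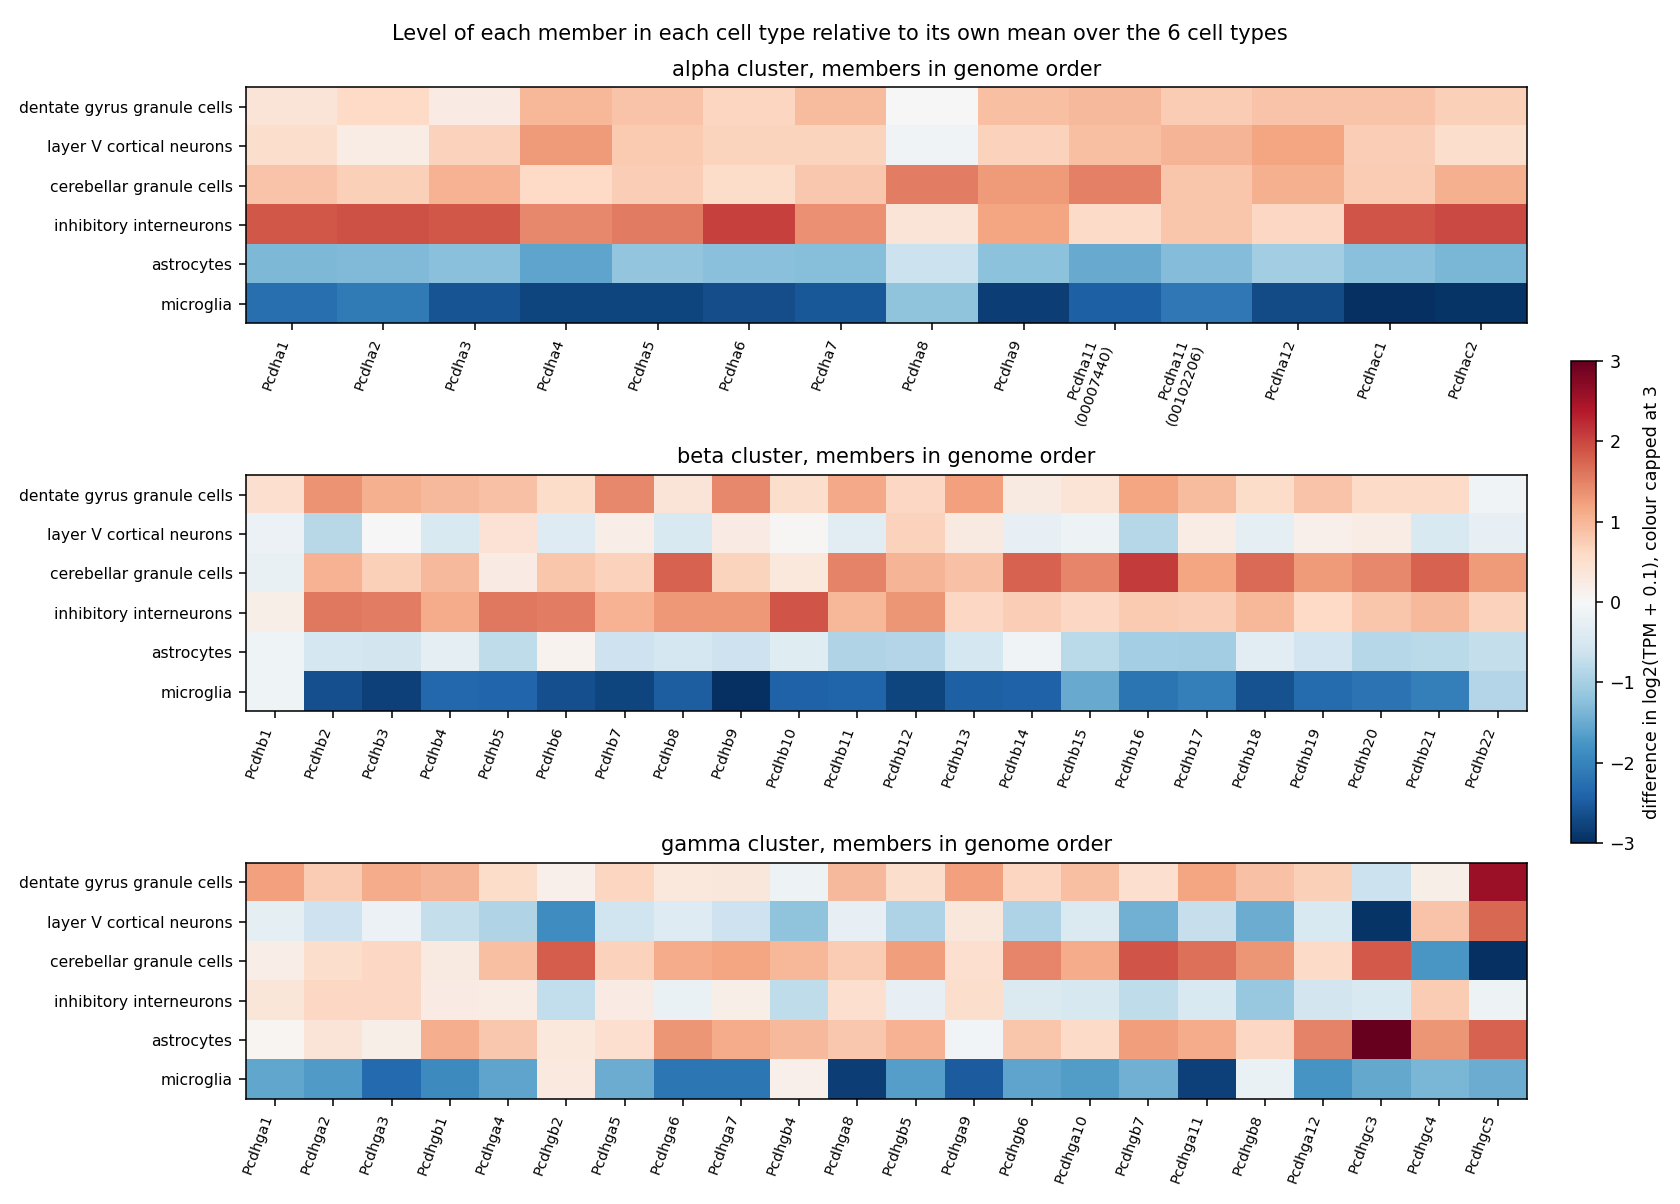
Level of each member in the 6 cell types relative to its own mean over them, as a difference in log2(TPM + 0.1) (colour, capped at 3 in either direction), with members in genome order within each cluster. Alpha genes and many beta genes are low in both glial types, and single gamma genes (Pcdhgc3, Pcdhgc4, Pcdhgc5) differ from their neighbours.

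Across all members, the order of levels was close within a cell type. Spearman's rho over the members' TPM was 0.934 to 0.987 between libraries of 1 cell type (18 pairs) and 0.349 to 0.898 between libraries of different cell types (135 pairs). For the gamma cluster alone the latter ran from 0.01 to 0.883. These correlations are descriptions over genes that share sequence and libraries that share an annotation.

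Members were compared between cell types in 1 fit of all 18 libraries and 20524 genes, with edgeR's quasi-likelihood test on gene sums of the estimated counts. A gene was called where the adjusted p (Benjamini-Hochberg over all genes) was at most 0.05 and the change at least 2-fold. Changes are log2 fold changes, and a group of several cell types enters as the mean of their log levels. The median log2 fold change of all genes lay between -0.21 and 0.10 in the 7 comparisons, and between -0.19 and 0.18 on the TPM scale.

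Neurons against astrocytes gave opposite directions by cluster. Of 57 members tested, 29 were higher in neurons and 11 lower, where 13.7% of all genes were higher and 28.3% lower. The higher members were all 14 alpha genes and 15 of 21 beta genes, with median log2 fold changes of 2.12 for alpha and 1.24 for beta. The lower members were 11 of 22 gamma genes, with a median of -1.03. That is against a mean of unlike neuron types. Astrocyte libraries lay above every neuron library for Pcdhgc3, Pcdhga12 and, over all models, Pcdhgc4, and below every neuron library for Pcdhga9. How many of all genes separate in this way was not counted. Summed gamma A and B isoforms averaged 190 TPM in astrocytes and 229 TPM in cerebellar granule cells, without overlap. Dentate libraries (mean 172 TPM) overlapped astrocytes, whereas interneurons (98.2 TPM) and layer V neurons (64.9 TPM) were lower. The largest rises were Pcdha11 (ENSMUSG00000007440) at 2.48 (SE 0.18, adjusted p = 5.5e-10) and Pcdha4 at 2.40 (SE 0.13, adjusted p = 6.8e-12). Pcdhgc3 was lower in neurons by the most, at -4.57 (SE 0.06, adjusted p = 3.1e-21), followed by Pcdhgc5 at -2.16 (SE 0.07, adjusted p = 4.3e-15). The neuron types behind the value of Pcdhgc5 were unlike, with dentate libraries above those of astrocytes and cerebellar libraries under 1 TPM. Pcdhgc4 was called lower over all models (-1.38, SE 0.10) but not over models with the variable exon (-0.49, SE 0.11, adjusted p = 5.1e-04, under 2-fold). With the 10 batch 2 libraries alone, where 4 cell types have 1 library each, 7 gamma members were lower, and on the TPM scale limma gave 32 higher and 7 lower.

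Microglia stood below neurons for nearly all members. Of 57 tested, 53 were higher in neurons, where 21.4% of all genes were higher, and none was lower, where 31.7% of all genes were. The count of 0 is from edgeR, with 2 members lower at an unadjusted p under 0.05, and DESeq2 gave 0 and 2 as well. The 2 largest changes were Pcdhb2 at 4.77 (SE 0.33, adjusted p = 1.7e-10) and Pcdhac1 at 4.49 (SE 0.14, adjusted p = 1.7e-15). Pcdhb2 was at 0.112, 0.107 and 0.0091 TPM in microglia and at 0.435 to 3.47 in neurons. The 4 members not called were Pcdhgb2 (-0.65), Pcdhgb4 (-0.64), Pcdhgb8 (-0.18) and Pcdhgc3 (0.80). In batch 2 libraries alone the same 53 were called.

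Astrocytes against microglia gave 51 members higher in astrocytes, where 23.1% of all genes were, and 0 lower, where 21.1% were. No member was lower at an unadjusted p under 0.05 by edgeR or by DESeq2, which also called 0. Pcdhgc3 (5.37, SE 0.10, adjusted p = 2.4e-18) and Pcdhga11 (4.08, SE 0.12, adjusted p = 1.3e-15) differed most. The 6 members not called were Pcdha2 (0.99), Pcdhb15 (0.87), Pcdhb22 (0.25), Pcdhgb2 (0.10), Pcdhgb4 (0.91) and Pcdhgb8 (0.99). Pcdhgb2, Pcdhgb4 and Pcdhgb8 were thus uncalled in both comparisons with microglia. Astrocytes were in batch 1 and microglia in batch 2, and 48 members were higher in batch 2 libraries alone.

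**Figure D4:**
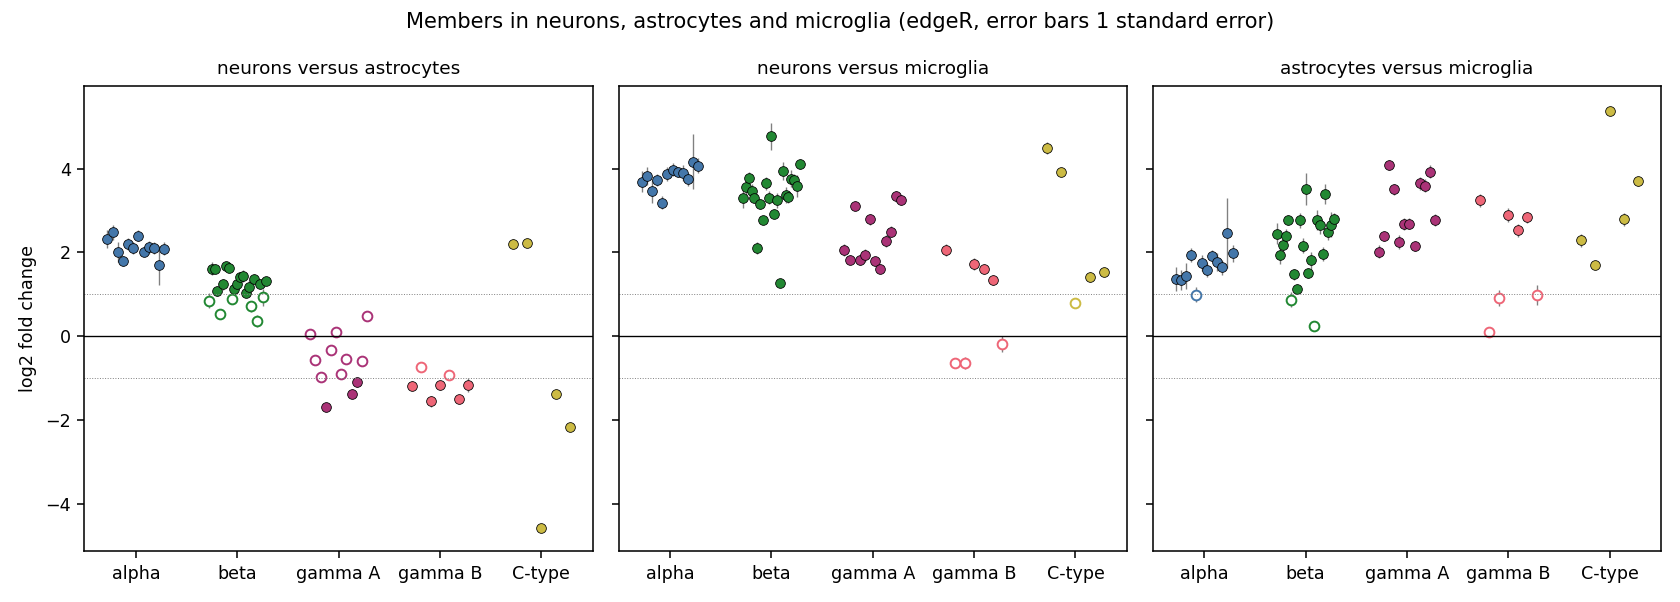
Log2 fold changes of the 57 members tested, by group (alpha, beta, gamma A, gamma B, C-type), for neurons against astrocytes, neurons against microglia and astrocytes against microglia; filled points were called, open points were not, error bars are 1 SE and dotted lines mark 2-fold. Alpha and beta members lie above 0 and most gamma members below 0 against astrocytes, 3 gamma B members lie below 0 in neurons against microglia, and all members lie above 0 in astrocytes against microglia.

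Cerebellar granule cells were higher than the other neurons in 11 gamma genes, 7 beta genes and 1 alpha gene. Against the mean of the other 3 neuron types, 19 members were higher (14.5% of all genes) and 2 lower (29.1% of all genes). The alpha gene was Pcdha8, and 6 of the gamma genes were gamma B. Pcdhgc3 rose most, by 3.26 on the log2 scale (SE 0.06, adjusted p = 2.7e-18), followed by Pcdhgb2 at 2.69 (SE 0.08, adjusted p = 8.5e-16). Pcdhgb2 was at 21.8, 27.2 and 22.5 TPM in cerebellar granule cells against 1.63 to 7.90 in the other neuron types, with no overlap. The 2 lower members were Pcdhgc5 (-5.53, SE 0.12, adjusted p = 2.7e-17) and Pcdhgc4 (-2.02, SE 0.13, adjusted p = 1.3e-10). For Pcdhgc4 the models with the variable exon gave 0.49 (SE 0.12, adjusted p = 8.2e-04), the other direction and under 2-fold.

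Layer V neurons were the low neuron type for beta and gamma B members. Against the other neuron types, 19 members were lower (9.21% of all genes) and 2 higher (17.3% of all genes). The lower members were 8 beta genes and 11 gamma genes, among them all 7 gamma B genes, and no alpha gene was called in either direction. Pcdhgc3 fell by 3.04 on the log2 scale (SE 0.08, adjusted p = 2.1e-15) and Pcdhb2 by 2.12 (SE 0.23, adjusted p = 2.5e-07). Pcdhb2 was at 0.615, 0.493 and 0.435 TPM in layer V neurons, below every library of the other neuron types (2.10 to 3.47). Pcdhgc5 was higher (2.33, SE 0.08, adjusted p = 2.4e-14), and so was Pcdhgc4 over all models (1.03, SE 0.11, adjusted p = 1.6e-07). With the variable exon, Pcdhgc4 was lower instead (-1.63, SE 0.13, adjusted p = 4.7e-09).

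Dentate gyrus granule cells differed from the other neurons in few members. The 4 higher (17% of all genes) were Pcdhgc5, Pcdhgb8, Pcdhga1 and Pcdhgb1, and the 1 lower (8.59% of all genes) was Pcdha3. Both counts are smaller shares than those of all genes. Pcdhgc5 was 3.43 higher (SE 0.07, adjusted p = 6.7e-17) and Pcdhgb8 1.498 higher (SE 0.19, adjusted p = 1.7e-06), and Pcdha3 was 1.06 lower (-1.06, SE 0.13, adjusted p = 1.3e-06). Pcdhgb8 was at 1.55, 1.67 and 1.23 TPM in dentate gyrus granule cells, above layer V neurons and interneurons (0.147 to 0.332) but below cerebellar granule cells (1.89 to 2.43). Pcdha3 was at 1.88, 2.39 and 2.21 TPM, below every library of the other neuron types (2.67 to 7.53). With models of the variable exon Pcdhgc4 was lower too (-2.42, SE 0.14, adjusted p = 5.7e-11). With batch 2 libraries alone 2 members were higher and 2 lower, and on the TPM scale 5 were higher and 0 lower.

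Against the mean of the other neuron types, interneurons were higher in 5 of 14 alpha genes and lower in the last gamma genes before the C-types. Layer V neurons shared the low level of those gamma genes. In all, 8 members were higher (18% of all genes) and 6 lower (6.64% of all genes), shares near those of all genes. The higher members were the alpha genes Pcdha1, Pcdha2, Pcdha3, Pcdha6 and Pcdhac2, the beta genes Pcdhb6 and Pcdhb10, and Pcdhgc4. Pcdhb10 was at 8.31, 8.24 and 6.78 TPM in interneurons and 1.72 to 3.65 in the other neuron types, a change of 1.46 (SE 0.16, adjusted p = 2.3e-07). Pcdha6 was at 7.93, 8.58 and 7.70 TPM against 2.44 to 3.26, a change of 1.28 (SE 0.13, adjusted p = 8.9e-08), and Pcdhgc4 with the variable exon changed by 3.56 (SE 0.10, adjusted p = 3.6e-15). In none of these did interneuron libraries overlap those of other neurons.

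The 6 lower members were Pcdhgb6, Pcdhga10, Pcdhgb7, Pcdhga11, Pcdhgb8 and Pcdhga12, which are the 6 consecutive genes before the gamma C-types. Pcdhgb8 was lowest at -1.73 (SE 0.23, adjusted p = 3.8e-06), followed by Pcdhga11 at -1.33 (SE 0.09, adjusted p = 4.7e-10). Pcdhgb8 (0.219 to 0.332 TPM) and Pcdhga11 overlapped layer V neurons and were below both granule cell types. Pcdhga10 and Pcdhga12 overlapped layer V neurons too. Pcdhgb6 (4.88 to 6.58 TPM) and Pcdhgb7 (2.52 to 2.81 TPM) lay above layer V neurons, at 3.97 to 4.33 and 1.54 to 1.66 TPM. All interneuron libraries were from batch 2, and within that batch 7 members were higher and 5 lower, without Pcdha3 and Pcdhga12. On the TPM scale 11 were higher and 4 lower. The part of the high oligodendrocyte markers in these values was not tested.

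The interneuron change also followed gene order. Without C-types, Spearman's rho between a gene's position in its cluster and its log2 fold change was -0.81 for 12 alpha genes, -0.66 for 21 beta genes and -0.88 for 19 gamma genes. The median change was 1.12 in the first 6 alpha genes and -0.22 in the last 6, 0.70 in the first 10 beta genes and -0.10 in the last 11, and -0.14 in the first 9 gamma genes and -1.01 in the last 10. In batch 2 libraries alone rho was -0.90, -0.71 and -0.86. In cerebellar granule cells rho was 0.51, 0.60 and 0.51 for alpha, beta and gamma. It was 0.52, 0.21 and -0.13 in layer V neurons and 0.45, -0.45 and 0.26 in dentate gyrus granule cells. The dentate beta value thus had the sign of the interneuron one. Each neuron type is among the reference types of the others, so the signs of these comparisons are not independent of one another. How far the interneuron slope is that of its reference types was not tested. In batch 1 libraries alone, which hold no interneurons, the cerebellar rho was 0.05 for alpha, 0.48 for beta and 0.42 for gamma. There it was 0.10, 0.02 and -0.41 in layer V neurons and -0.13, -0.67 and -0.20 in dentate gyrus granule cells. In all 18 libraries the beta rho was -0.71 in neurons against microglia, -0.65 in astrocytes against microglia and 0.22 in neurons against astrocytes. These values are descriptions, since neighbours share sequence and reads may be split among them.

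**Figure D5:**
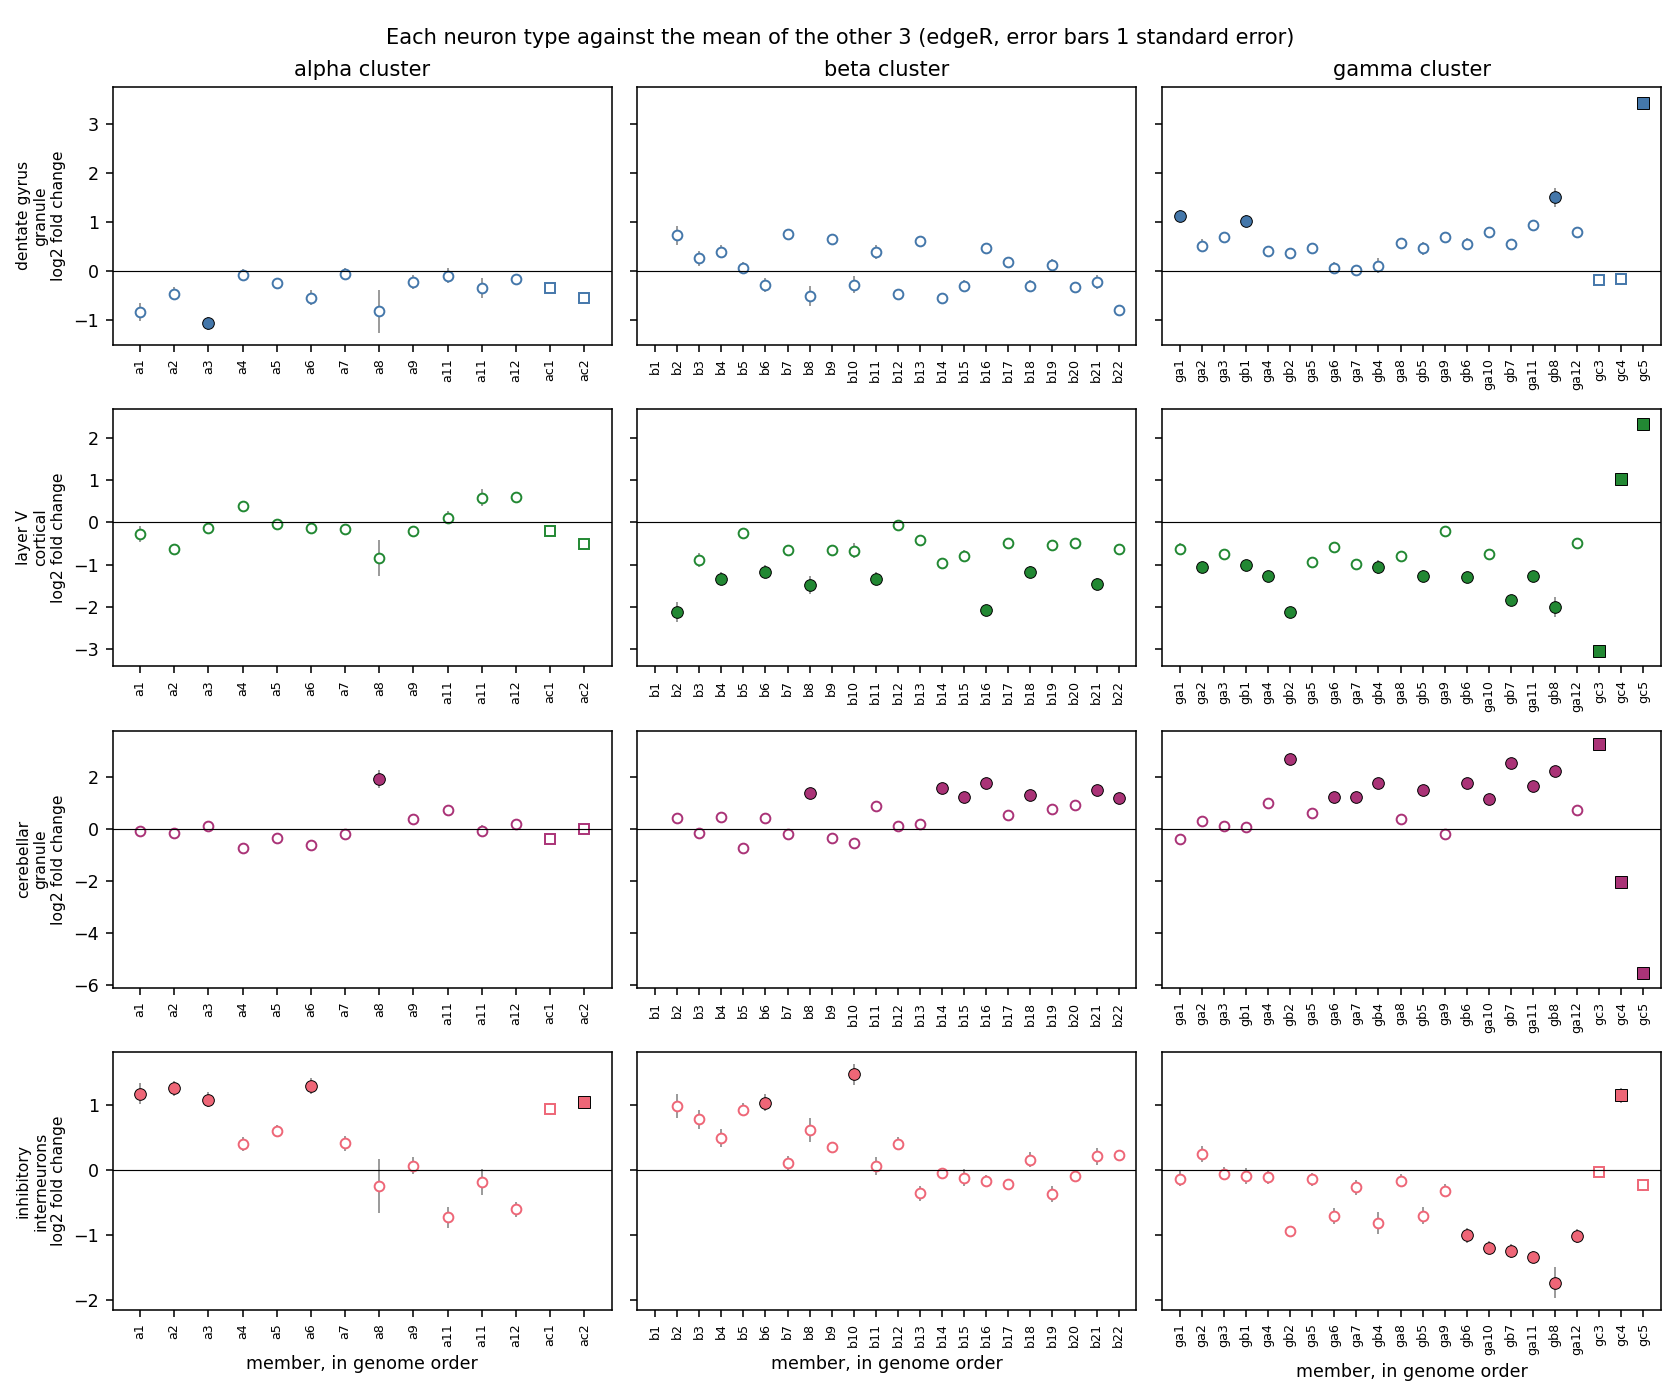
Log2 fold change of each member tested in each neuron type against the other 3, in genome order by cluster; filled points were called, open points were not, squares are C-types, and error bars are 1 SE. Interneuron values fall along the alpha and gamma clusters, layer V values lie mostly below 0 in beta and gamma, and Pcdhgc3 and Pcdhgc5 lie far from their neighbours in cerebellar and layer V neurons.

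Other genes related to the clusters were read in the same fit. The non-clustered delta protocadherins, which are single genes of the same superfamily, differed in direction from the clustered genes in cerebellar granule cells. There 0 of 10 were higher and 8 lower (median -4.47) against a median of 0.41 over the clustered members. Of all genes 14.5% were higher and 29.1% lower in that comparison. The count of 10 delta genes was 9 higher and 0 lower in neurons against microglia (21.4% and 31.7% of all genes). It was 10 higher and 0 lower in astrocytes against microglia (23.1% and 21.1% of all genes). In neurons against astrocytes 1 was higher (Pcdh8) and 5 lower (13.7% and 28.3% of all genes). Interneurons had 7 higher and 0 lower (18% and 6.64% of all genes). Dentate gyrus granule cells had 5 higher and 1, Pcdh18, lower (17% and 8.59% of all genes). Layer V neurons had 3 higher and 0 lower (17.3% and 9.21% of all genes). Pcdh1, the highest on average, had means of 172 TPM in dentate gyrus granule cells, 92.2 in layer V, 82.3 in interneurons and 49.7 in cerebellar granule cells, with astrocytes at 58.0 and microglia at 14.7 TPM. Pcdh10, a regulator of axon growth and synapse elimination, was highest in astrocytes (114 TPM) and at 2.17 TPM in cerebellar granule cells, and Pcdh9 was at 32.8 to 76.7 TPM in all types but microglia (3.91 TPM).

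Of 15 genes for promoter choice and chromatin at the clusters (CTCF, cohesin, DNA methyltransferases and repressors), 12 were higher and 0 lower in cerebellar granule cells, with a median of 1.63. Of all genes 14.5% were higher and 29.1% lower there. The cohesin subunit Rad21 had a mean of 204 TPM there against 49.1 to 77.3 in the other neuron types, Smc1a 195 against 38.8 to 59.1, and Ctcf 140 against 41.6 to 83.5. No libraries overlapped, and the changes were 1.65 (SE 0.04), 1.79 (SE 0.04) and 1.42 (SE 0.04). Layer V neurons had 0 higher and 7 lower, interneurons 0 and 3, and dentate gyrus granule cells 1 (Rest) and 0. Ctcf was at -1.06 (SE 0.05) in interneurons, whose libraries (42.4 to 44.7 TPM) lay above those of layer V neurons (41.4 to 41.8 TPM). Against astrocytes 1 gene of the list (Dnmt1) was higher and 2 lower in neurons, and against microglia 0 and 4. In astrocytes against microglia 0 were higher and 3 lower. The shares of all genes in these comparisons are those given with the delta protocadherins.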

How the data were processed

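RiboTag libraries of 6 cell types were used, 1 per replicate (18 of 22). Per the submitters' processing notes the authors trimmed reads with cutadapt 3.5 and ran kallisto 0.46.2 on GENCODE M24 transcripts (GRCm38). For each transcript they deposited an estimated count (raw) and a TPM value (scaled within each library). Total estimated counts were 38270477 to 71440915 (median 54631726). Both were summed per gene here. The authors' own differential test, sleuth, was not run. kallisto divides reads that fit several members by a model, so values of genes that share exons depend on one another.

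Rounded gene counts were tested with edgeR 4.0.16 (TMM, filterByExpr, quasi-likelihood) in R 4.3.3, with limma 3.58.1 on log2(TPM + 0.1) and DESeq2 1.42.0 as alternatives, beside others on batch, filters, transcripts summed and single replicates. Models with the variable exon were an alternative chosen after seeing the data. Python 3.11.15, numpy 2.4.6, pandas 2.3.3, scipy 1.17.1 and matplotlib 3.10.9 did the rest. Gene positions came from GENCODE M21, which held 89 of 89 member transcripts. Standard errors are the absolute log2 fold change over the square root of its F statistic, and p-values measure the spread among replicates. No 2 replicates agreed within sampling noise. On simulated data of dentate gyrus granule cells against other neurons edgeR recovered 100 of 100 genes changed 4-fold and 100 of 100 changed 8-fold, and called 2 unchanged genes among 19313. Smaller changes and changes in genes with low counts were not simulated, and all genes were given the same spread. Recovery near the 2-fold threshold was therefore not measured. Promoter and protein sequences were not used here. 1 gene of the list for promoter choice and chromatin is not reported here.

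The members, gene lists and tests were chosen with earlier results of these data known. The genes named are the C-types, the highest members of each group, the leading member of each cluster in a cell type, the 2 largest called changes in each direction, the lowest members, and the highest genes of each list with any gene called alone in its direction. Outside this rule, members of counts of 8 or fewer and Pcdhgb4 and Pcdhgb8 were named after their values were seen.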

Additional observations from a re-analysis of the deposited data

Results flagged for a closer look

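One gene that belongs to no comparison here had a level tied to a cell type. Gm38182 (ENSMUSG00000102828), a non-coding model over the gamma constant exons on chromosome 18 from 37823879 to 37840382 (GRCm38), shares 1530 bases with members' models. It was at 28.2, 30.2 and 39.5 TPM in the astrocyte libraries, a mean of 32.6 ± 6.05 TPM (SD, n = 3). In the other cell types its means were 0.36 TPM in microglia, 0.78 in layer V neurons, 1.09 in cerebellar granule cells, 2.12 in interneurons and 2.82 in dentate granule cells. It is not a member, since none of its models is protein-coding, and whether its reads come from member transcripts was not tested.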

How the results depend on the processing

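Of the recomputed counts of members called, 385 stayed within 1.5 times the reported one and 15 did not. Of the recomputed values of named members, 1236 kept their direction and side of the threshold, 20 newly passed it, 10 no longer did and 8 changed sign. In neurons against astrocytes 7 members in place of 11 were lower with batch 2 libraries alone and with limma on TPM. In dentate gyrus granule cells 2 in place of 4 were higher with batch 2 alone. There 2 in place of 1 were lower with batch as a term, with batch 2 alone, with the batch 2 libraries of the 4 replicates sequenced in both batches, and with the variable exon, and 0 with limma. Without dentate gyrus granule cells replicate 2 they were 2 (range 1 to 2). In layer V neurons 1 in place of 2 was higher with the variable exon and without cerebellar replicate 3, dentate replicate 1, or layer V replicate 1 or 2 (range 1 to 2), with Pcdhgc4 at 0.93 to 1.06 without single replicates. In cerebellar granule cells 1 in place of 2 was lower with the variable exon.

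Values that changed sign were Pcdhgb8 in neurons against microglia (0.11 with limma, 0.001 without microglia replicate 3, range -0.39 to 0.001 without single replicates), Pcdhgb2 in astrocytes against microglia (-0.004 with batch as a term, -0.047 with batch 2 alone, -0.008 with protein-coding transcripts alone, -0.052 without astrocytes replicate 3, range -0.052 to 0.156 without single replicates), and Pcdhgc4 with the variable exon, at -1.63 in layer V neurons and 0.49 in cerebellar granule cells. None of the first 2 was called, and their causes were not tested. With TMM-scaled CPM, which is not scaled by length, the neuron mean over astrocytes was 4.70 for alpha, 2.43 for beta and 0.311 for gamma, and over microglia 15.4 for alpha and 8.05 for beta. With the variable exon gamma gave 0.365 over astrocytes and 4.72 over microglia.

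Deviations of same-numbered replicates of different cell types were little correlated (45 pairs, r from -0.10 to 0.11). Such values cannot show whether 2 libraries came from the same mice. With the replicate block 52 members in place of 51 were higher in astrocytes against microglia, and no other count of members changed. Depth limits members with low counts, among them Pcdhb1, Pcdha8, Pcdhgb8 and, in microglia, Pcdhb2. The change of Pcdhb2 in neurons against microglia, the largest of that comparison, thus rests on few counts in microglia. The 3 replicates limit all values.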

Other observations

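Of 8 seven-pass and giant cadherins, which are large relatives of the protocadherins, 3 were higher and 4 lower in cerebellar granule cells. Shares of all genes called in each comparison are those given with the delta protocadherins, here and for the lists that follow. Fat2, a cadherin of granule cell parallel fibres, had a mean of 199 TPM there and at most 0.063 TPM in any library of another cell type. Celsr2, a planar polarity cadherin, ranged from 30.6 TPM in cerebellar to 62.8 TPM in dentate granule cells among neurons and was at 12.3 TPM in microglia. In the list 0 were higher and 4 lower in neurons against astrocytes, 3 and 1 against microglia, and 5 and 0 in astrocytes against microglia. The counts were 3 and 2 in dentate gyrus granule cells, 1 (Dchs1) and 1 (Fat2) in interneurons, and 1 and 4 in layer V neurons.

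Of 15 intracellular partners and kinases, 6 were higher and 0 lower in dentate gyrus granule cells. Ptk2b, a focal adhesion kinase family member that binds protocadherin tails, had a mean of 1065 TPM there, 281 in layer V neurons, 0.601 in cerebellar granule cells and 58.6 in interneurons. Cyfip2, of the WAVE complex, was at 242 to 362 TPM in neurons, 71.7 in astrocytes and 24.1 in microglia, and Rac1 at 330 to 722 TPM everywhere. The counts were 2 higher and 2 lower in neurons against astrocytes, 7 and 4 against microglia, 6 and 2 in astrocytes against microglia, 0 and 3 in cerebellar granule cells, 1 (Prkca) and 2 in interneurons, and 1 and 1 in layer V neurons. Of 9 membrane partners and proteases, 2 were higher and 2 lower in neurons against astrocytes, 3 and 4 against microglia, and 3 and 3 in astrocytes against microglia. Among neuron types their counts were 0 and 1 (Ret) in dentate gyrus granule cells, 0 and 0 in layer V neurons, 1 (Adam10) and 1 (Nlgn1) in cerebellar granule cells, and 1 (Ret) and 0 in interneurons. N-cadherin (Cdh2) was at 136 TPM in astrocytes, 62.7 to 102 in neurons and 7.05 in microglia.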
